A study of Homo sapiens with 6 samples.

Results

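IDH1, IDH2, ARID1A, BAP1, PBRM1, SMAD4, BRAF and PIK3CA are genes that are recurrently mutated or lost in cancer of the bile ducts (cholangiocarcinoma). They were found in the deposited expression table by their symbols, and all 8 were among its 20811 genes. The measured cells were HuCCT1, an established human line from an intrahepatic cholangiocarcinoma. HuCCT1/CD90+ cells had received a lentivirus that carries human THY1, the gene of the surface protein CD90, with a CMV promoter and GFP. HuCCT1/CD90- cells had received the blank counterpart with CMV, GFP and a puromycin resistance gene. Each line gave 3 libraries, so 6 libraries were compared, and the question was how expression differed between the lines. Both lines derive from 1 parental tumour line, and nothing in the labels says that the replicates came from separate cultures. The p-values therefore measure only the spread between these libraries, which may be technical. Expression was measured with a targeted amplicon panel that reads a short piece of each gene, as reads scaled to library size (RPM). The results below are on the amount of RNA and say nothing of mutations.

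The 8 genes act in a few well-known pathways. IDH1 and IDH2 are isocitrate dehydrogenases that make 2-oxoglutarate, in the cytosol and in mitochondria respectively. Their mutant forms make 2-hydroxyglutarate, which inhibits enzymes that remove methyl groups from DNA and histones. ARID1A and PBRM1 are subunits of SWI/SNF complexes, which move nucleosomes, and BAP1 is a nuclear enzyme that takes ubiquitin off histones. SMAD4 carries the TGF-beta signal to the nucleus together with other SMADs. BRAF is a kinase between RAS and MEK, and PIK3CA is a catalytic subunit of the lipid kinase PI3K. In bile duct cancer ARID1A, PBRM1, BAP1 and SMAD4 are mostly inactivated, whereas BRAF, PIK3CA, IDH1 and IDH2 carry mutations that change or raise their activity.

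Between HuCCT1/CD90+ and HuCCT1/CD90- cells, BRAF rose and SMAD4 fell. The other 6 genes did not pass the test, which was limma on log2(RPM + 1) over all genes with a Benjamini-Hochberg adjusted p of at most 0.05. The 2 genes called are 25.0% of the 8, and 18.9% of the 20811 genes were called in the same comparison. Of all genes, 9.41% were called higher and 9.52% lower. Of the driver genes, 7 averaged at least 10 RPM, and 2 of these were called, or 28.6%, against 28.4% of all such genes. The driver genes were thus called about as often as other genes of similar level. With replicate number as a block, BRAF was still called and SMAD4 was not (limma adjusted p = 0.037 and 0.060). That fit called 13.1% of all genes. In 7 of the 8 genes the values of the lines did not overlap, with 4 higher and 3 lower in HuCCT1/CD90+ cells, against 35.0% of all genes (17.3% higher and 17.7% lower). Among genes of at least 10 RPM, 6 of 7 did not overlap, against 52.5%.

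**Figure D1:**
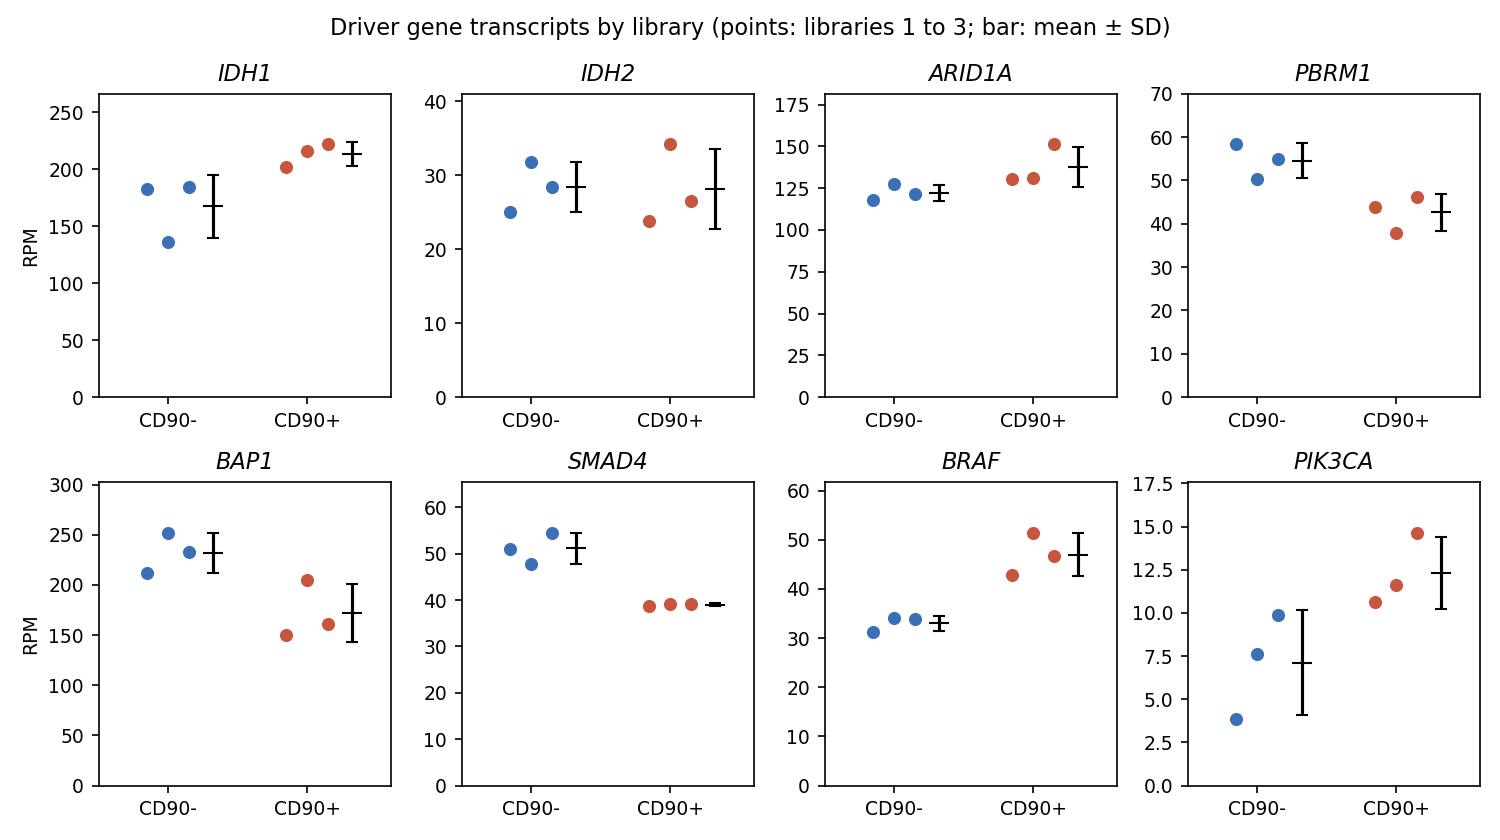
RPM of the 8 driver genes, each on its own axis from 0, in the 3 HuCCT1/CD90- (left) and the 3 HuCCT1/CD90+ libraries (right), with a point for each library and a bar for the mean and SD of each line. The lines overlap for IDH2 and for no other gene of the 8.

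Of all genes of at least 10 RPM, 19.1% had a difference at least as large as that of PIK3CA, 36.6% as that of BRAF, 47.4% as that of SMAD4, 73.8% as that of ARID1A and 96.8% as that of IDH2, and the values for BAP1, IDH1 and PBRM1 were 41.2%, 49.7% and 50.5%. With the study's thresholds for fold and p, a fold of at least 1.5 and a p of at most 0.05, here taken as unadjusted, 0 of the 8 genes passed, against 20.1% of all genes. By limma, 4 of the 8 had an unadjusted p of at most 0.05 (BAP1, PBRM1, SMAD4 and BRAF), against 31.1% of all genes. PIK3CA was the one gene of the 8 that reached a fold of 1.5. The driver genes had 41 to 2396 reads in a library. When the tests were run on recovered reads, edgeR called 4 of the 8, against 44.4% of the genes it tested, and DESeq2 called the same 4, against 37.0%. These were BAP1, SMAD4, BRAF and PIK3CA.

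**Figure D2:**
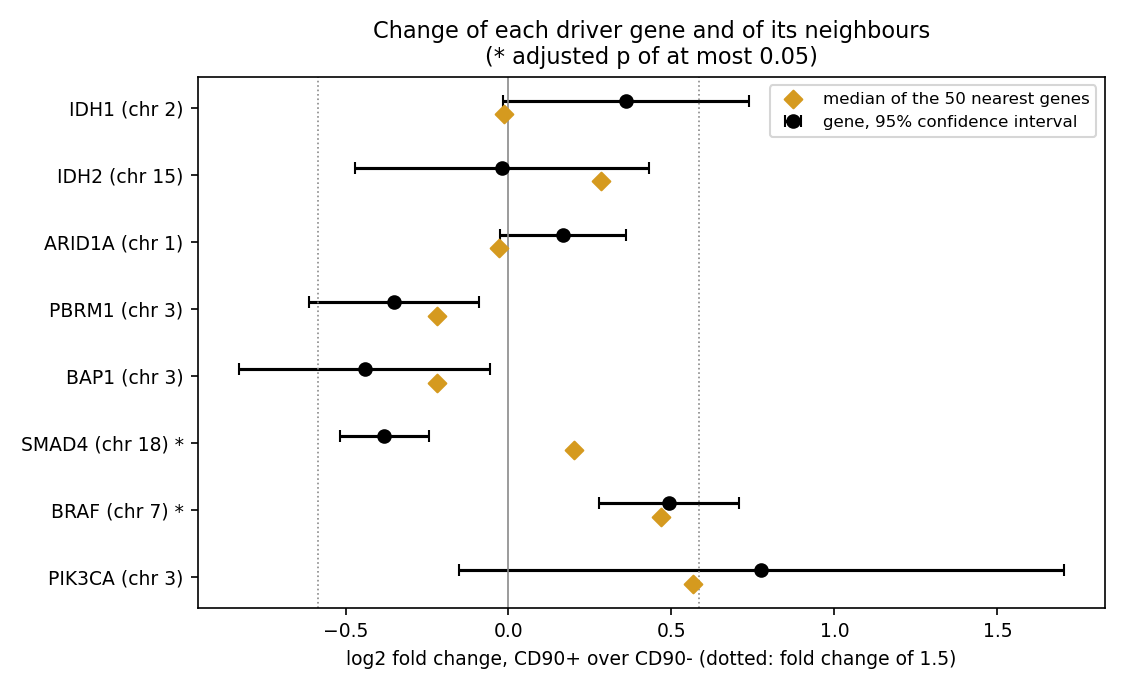
Difference in log2(RPM + 1) between HuCCT1/CD90+ and HuCCT1/CD90- cells for each driver gene, with the 95% confidence interval from limma (black) and the median of its 50 nearest genes on the chromosome (diamonds). Dotted lines mark a fold of 1.5 and asterisks mark called genes. The intervals of BAP1, PBRM1 and SMAD4 lie below 0, that of BRAF lies above 0, and the other 4 cross 0.

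IDH1 lies on chromosome 2 at 208236227 to 208266074 on the minus strand (GRCh38, GENCODE 29). It had 182, 136 and 184 RPM in HuCCT1/CD90- libraries 1, 2 and 3, and 202, 216 and 222 RPM in HuCCT1/CD90+ libraries. Every HuCCT1/CD90+ value was above every HuCCT1/CD90- value, and the second HuCCT1/CD90- library stood below the other two. The means were 167 ± 27.5 and 213 ± 10.2 RPM (SD, n = 3 per line). The log2 difference of 0.36 (SE 0.14) did not pass the test (limma adjusted p = 0.18), and without the second HuCCT1/CD90- library it was 0.22. An antisense gene, IDH1-AS1, overlaps IDH1, and the strand of the counting is not given in the sources used here. A processed copy of IDH1 also exists in the genome, so its reads are uncertain to that extent.

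IDH2, the mitochondrial enzyme, lies on chromosome 15 at 90083045 to 90102504 on the minus strand. Its values were 25.0, 31.8 and 28.4 RPM in HuCCT1/CD90- and 23.8, 34.2 and 26.6 RPM in HuCCT1/CD90+ libraries. The HuCCT1/CD90+ range enclosed the HuCCT1/CD90- range, with means of 28.4 ± 3.38 and 28.2 ± 5.40 RPM (SD, n = 3 per line). The log2 difference was -0.02 with a 95% interval from -0.47 to 0.43 (limma adjusted p = 1). In the fit blocked on replicate number the SE was 0.06 in place of 0.17, and the adjusted p was again 1. Within a library, the log2 ratio of IDH1 to IDH2 was 2.51 ± 0.40 in HuCCT1/CD90- and 2.89 ± 0.23 in HuCCT1/CD90+ cells (SD, n = 3 per line). The ratios of the lines overlapped (two-sided exact permutation test, p = 0.3, adjusted p = 0.42 over 7 pairs), and their difference of 0.38 was 0.15 without the second HuCCT1/CD90- library. Within replicate numbers the ratio was higher in HuCCT1/CD90+ cells in 3 of 3 pairs of libraries (paired exact permutation p = 0.25, the smallest that 3 pairs allow).

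Among 23 genes of the citrate cycle and of 2-hydroxyglutarate metabolism, IDH1 and IDH2 included, 2 rose, 1 fell and 20 were not called. That is 13.0%, against 18.9% of all genes. Of the 21 that averaged at least 10 RPM, 3 were called, against 28.4% of all such genes. The median log2 difference of the list was 0.11, against 0.01 over all genes of at least 10 RPM. OGDH, a subunit of the enzyme that uses up 2-oxoglutarate, rose from 99.5 ± 3.90 to 149 ± 9.73 RPM (SD, n = 3 per line, limma adjusted p = 0.0067). MDH2, the mitochondrial malate dehydrogenase, rose by 0.91 on the log2 scale (limma adjusted p = 0.020). SDHC, a membrane anchor of succinate dehydrogenase, fell by 0.35 on the log2 scale (limma adjusted p = 0.030). D2HGDH, which oxidises the 2-hydroxyglutarate that mutant IDH makes, had 12.0 ± 4.28 and 7.68 ± 2.05 RPM and did not pass (SD, n = 3 per line, limma adjusted p = 0.35). Blocking on replicate number gave 2 called genes of the 23, both lower, against 13.1% of all genes. OGDH, MDH2 and SDHC were then not called (limma adjusted p = 0.058, 0.058 and 0.092).

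Among 15 TET enzymes and histone demethylases, 1 rose, 4 fell and 10 were not called, with a median log2 difference of -0.11. That is 33.3% called, against 18.9% of all genes. Of the 13 that averaged at least 10 RPM, 3 were called, against 28.4% of all such genes. TET enzymes oxidise methylated cytosine in DNA. TET1 fell by 1.22 and TET2 by 0.71 on the log2 scale, and TET3 had 19.0 ± 3.32 and 23.9 ± 2.67 RPM without passing the test (SD, n = 3 per line, limma adjusted p = 0.26). TET1 was near the limit of detection in HuCCT1/CD90+ cells, with 3 to 5 reads in a library. KDM2B, a demethylase of histone lysines, fell from 90.8 ± 5.34 to 48.4 ± 5.49 RPM (SD, n = 3 per line, limma adjusted p = 0.0076), and KDM5B fell by 0.43 on the log2 scale. KDM6A had at most 3 reads in each HuCCT1/CD90- library and 10 or 11 in the HuCCT1/CD90+ libraries. With replicate number as a block, 3 of the 15 were called, against 13.1% of all genes. TET1 and TET2 were not called in that fit (limma adjusted p = 0.10 and 0.060).

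ARID1A lies on chromosome 1 at 26693236 to 26782110 on the plus strand. The gene had 118, 127 and 121 RPM in HuCCT1/CD90- and 130, 131 and 151 RPM in HuCCT1/CD90+ libraries. The lines did not overlap, but the gap between them was small, and the third HuCCT1/CD90+ library was the highest. The means were 122 ± 4.62 and 138 ± 11.9 RPM (SD, n = 3 per line). The log2 difference of 0.17 (SE 0.07) did not pass the test (limma adjusted p = 0.22), and without the third HuCCT1/CD90+ library it was 0.10. ARID1B, which takes the place of ARID1A in other copies of the same complex, had 99.4 ± 19.4 and 70.0 ± 1.40 RPM (SD, n = 3 per line, limma adjusted p = 0.12). The log2 ratio of ARID1A to ARID1B was 0.31 ± 0.24 and 0.96 ± 0.10 (SD, n = 3 per line). All 3 ratios of HuCCT1/CD90+ cells were above all 3 of HuCCT1/CD90- cells. The exact permutation test gave p = 0.1, the smallest that 3 against 3 libraries allow, and 0.175 after adjustment over the pairs.

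PBRM1, on chromosome 3 at 52545352 to 52685917 on the minus strand, codes for the subunit that marks the PBAF form of SWI/SNF. It had 58.4, 50.4 and 54.9 RPM in HuCCT1/CD90- and 43.8, 37.8 and 46.1 RPM in HuCCT1/CD90+ libraries. Each HuCCT1/CD90+ value was below each HuCCT1/CD90- value, and the means were 54.6 ± 4.0 and 42.6 ± 4.27 RPM (SD, n = 3 per line). The log2 difference was -0.35 (SE 0.10), with a 95% interval from -0.61 to -0.09 and a limma adjusted p of 0.080. ARID2, another subunit of PBAF, had 24.8 ± 2.01 and 26.8 ± 2.58 RPM, which overlapped (SD, n = 3 per line). The log2 ratio of PBRM1 to ARID2 was 1.11 ± 0.19 in HuCCT1/CD90- and 0.65 ± 0.05 in HuCCT1/CD90+ cells, without overlap (SD, n = 3 per line, exact permutation p = 0.1, adjusted p = 0.175).

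Of 28 SWI/SNF subunits, which include ARID1A and PBRM1, 2 rose, 5 fell and 21 were not called. This is 25.0%, against 18.9% of all genes, with a median log2 difference of -0.20. Of the 23 that averaged at least 10 RPM, 6 were called, against 28.4% of all such genes. SMARCA2, one of the ATPases that drive the complex, fell from 60.4 ± 2.63 to 43.4 ± 3.42 RPM (SD, n = 3 per line, limma adjusted p = 0.016). SMARCA4, the alternative ATPase, had 323 ± 53.9 and 308 ± 17.6 RPM, which overlapped (SD, n = 3 per line). The core subunits SMARCC1 and SMARCD1 fell by 0.36 and 0.43 on the log2 scale. The accessory subunits BCL7C and DPF1 fell by 1.13 and 0.72, while their relatives BCL7B and DPF3 rose by 0.81 and 1.04 on the log2 scale. DPF1 was at 8.24 RPM or less in every library, so its change rests on few reads. With replicate number as a block, 5 of the 28 were called, 1 higher and 4 lower, against 13.1% of all genes. SMARCD1, BCL7C, BCL7B and DPF3 were then not called (limma adjusted p = 0.088, 0.081, 0.15 and 0.10). DPF2, which was higher, and SMARCC2, which was lower, were called in that fit only (limma adjusted p = 0.034 and 0.037).

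BAP1 lies on chromosome 3 at 52401013 to 52410350 on the minus strand. Its values were 212, 252 and 232 RPM in HuCCT1/CD90- and 150, 205 and 161 RPM in HuCCT1/CD90+ libraries. The lines were separated by a narrow gap, because the second HuCCT1/CD90+ library was close to the first HuCCT1/CD90- library. The means were 232 ± 19.9 and 172 ± 28.9 RPM (SD, n = 3 per line), and the log2 difference of -0.44 (SE 0.14) had a limma adjusted p of 0.12. BAP1 was called by edgeR (adjusted p = 0.024) and DESeq2 (adjusted p = 0.022). It was also called in the limma fit limited to genes of at least 10 RPM (adjusted p = 0.040), where 42.2% of the genes were called, and without the second HuCCT1/CD90+ library (adjusted p = 0.048). BAP1 and PBRM1 lie 135 kb apart, and the log2 ratio of BAP1 to PBRM1 was 2.07 ± 0.23 and 1.98 ± 0.37 (SD, n = 3 per line, exact permutation p = 0.8, adjusted p = 0.8).

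Among 11 members of the BAP1 complex, 0 were called by limma, against 18.9% of all genes. By limma 1 had an unadjusted p of at most 0.05, against 31.1% of all genes. EdgeR and DESeq2 each called 1, against 44.4% and 37.0% of the genes they tested. BAP1 itself was the gene with the most negative difference. ASXL1, which activates BAP1, had 98.8 ± 4.06 and 89.4 ± 7.37 RPM, and its paralog ASXL2 had 79.8 ± 15.8 and 69.8 ± 5.19 RPM (SD, n = 3 per line). HCFC1 and OGT, which bind each other and BAP1, had 174 ± 43.5 and 163 ± 22.2 RPM and 105 ± 3.08 and 122 ± 17.2 RPM respectively (SD, n = 3 per line). For all 4 partners the values of the lines overlapped.

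SMAD4 fell in HuCCT1/CD90+ cells. The gene lies on chromosome 18 at 51028394 to 51085045 on the plus strand. It had 51.1, 47.8 and 54.5 RPM in HuCCT1/CD90- and 38.7, 39.2 and 39.1 RPM in HuCCT1/CD90+ libraries. The HuCCT1/CD90+ values lay close together, and all were below the lowest HuCCT1/CD90- value. The means were 51.1 ± 3.35 and 39.0 ± 0.275 RPM (SD, n = 3 per line). The log2 difference was -0.38 (SE 0.05), with a 95% interval from -0.52 to -0.24 and a limma adjusted p of 0.013, so that SMAD4 fell by 23.2% on the log2(RPM + 1) scale. In limma fits limited to genes of at least 1 or 10 RPM the SE was larger, 0.14 in both (adjusted p = 0.053 and 0.040). Those fits called 41.7% and 42.2% of their genes. With replicate number as a block the adjusted p was 0.060, in a fit that called 1 of the 8 driver genes (BRAF) and 13.1% of all genes. Without HuCCT1/CD90+ library 1, 2 or 3 it was 0.054, 0.051 or 0.057, and without any 1 HuCCT1/CD90- library it stayed at or below 0.05.

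The SMADs and their cofactors included 11 genes, of which 0 rose, 4 fell and 7 were not called. This is 36.4%, against 18.9% of all genes called and 9.52% called lower. Of the 9 that averaged at least 10 RPM, 3 were called, against 28.4% of all such genes. The median log2 difference was -0.18. SMAD6, an inhibitory SMAD that blocks BMP signalling, fell from 68.6 ± 6.99 to 7.69 ± 3.27 RPM (SD, n = 3 per line, limma adjusted p = 0.0053). SKI, a corepressor that binds SMAD proteins, fell by 0.56 on the log2 scale (limma adjusted p = 0.021). SMAD9, the fourth gene called, had at most 2 reads in a library, so no fold is given. SMAD2 and SMAD3 are the partners of SMAD4 in the TGF-beta response. SMAD2 had 62.2 ± 5.61 and 45.4 ± 4.88 RPM without overlap (SD, n = 3 per line, limma adjusted p = 0.062). SMAD3 had 342 ± 85.4 and 374 ± 24.6 RPM and overlapped (SD, n = 3 per line). The log2 ratio of SMAD4 to SMAD3 was -2.69 ± 0.42 and -3.23 ± 0.09 (SD, n = 3 per line, exact permutation p = 0.1, adjusted p = 0.175), without overlap. Their difference of -0.54 was -0.33 without the first HuCCT1/CD90- library. With replicate number as a block, 2 of the 11 were called, SMAD6 and SKI, against 13.1% of all genes.

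BRAF rose in HuCCT1/CD90+ cells. The gene lies on chromosome 7 at 140719327 to 140924928 on the minus strand. It had 31.3, 34.0 and 33.9 RPM in HuCCT1/CD90- and 42.8, 51.5 and 46.7 RPM in HuCCT1/CD90+ libraries. Every HuCCT1/CD90+ library was above every HuCCT1/CD90- library, and the HuCCT1/CD90+ libraries were spread more widely. The means were 33.1 ± 1.54 and 47.0 ± 4.35 RPM (SD, n = 3 per line). The log2 difference was 0.49 (SE 0.08), with a 95% interval from 0.28 to 0.71 and a limma adjusted p of 0.021, a rise of 40.6% on the log2(RPM + 1) scale. In limma fits limited to genes of at least 1 or 10 RPM the SE was larger, 0.15 and 0.14 (adjusted p = 0.021 and 0.014). Those fits called 41.7% and 42.2% of their genes. The adjusted p exceeded 0.05 without HuCCT1/CD90- library 1, 2 or 3 (0.065, 0.065 and 0.069) and without HuCCT1/CD90+ library 3 (0.080). The log2 difference stayed between 0.42 and 0.56. A pseudogene of BRAF lies on the X chromosome, and reads of it could not be told apart here.

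ARAF, a related kinase, had 92.2 ± 17.7 and 89.3 ± 15.7 RPM with overlap and was not called (SD, n = 3 per line). In the cascade from RAS to ERK, 18 genes were measured, and 3 rose, 1 fell and 14 were not called. This is 22.2%, against 18.9% of all genes, with a median log2 difference of 0.04. Of the 15 that averaged at least 10 RPM, 3 were called, against 28.4% of all such genes. MAP2K1, the kinase MEK that BRAF activates, rose from 107 ± 4.58 to 190 ± 16.7 RPM (SD, n = 3 per line, limma adjusted p = 0.0052). RASA1, a protein that switches RAS off, rose from 56.5 ± 5.48 to 203 ± 53.8 RPM (SD, n = 3 per line, limma adjusted p = 0.0088). KSR1, a scaffold of the cascade, fell by 0.62 on the log2 scale from a low level. With replicate number as a block, 2 of the 18 were called, BRAF and MAP2K1, against 13.1% of all genes. The adjusted p of RASA1 was then 0.052 and that of KSR1 was 0.11 (limma).

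PIK3CA had the lowest RPM of the 8 genes. It lies on chromosome 3 at 179148114 to 179240093 on the plus strand. The values were 3.89, 7.60 and 9.89 RPM in HuCCT1/CD90- and 10.6, 11.6 and 14.6 RPM in HuCCT1/CD90+ libraries, from 41 to 135 reads. The lines did not overlap, but the first HuCCT1/CD90- library was well below the other two and set much of the difference. The means were 7.13 ± 3.03 and 12.3 ± 2.10 RPM (SD, n = 3 per line). The log2 difference of 0.78 (SE 0.35) did not pass the test (limma adjusted p = 0.23), and without the first HuCCT1/CD90- library it was 0.45. PIK3CA was called by edgeR (adjusted p = 0.022), by DESeq2 (adjusted p = 0.025) and in the limma fit limited to genes of at least 1 RPM (adjusted p = 0.032), where 41.7% of the genes were called. Copies of part of PIK3CA exist elsewhere in the genome, so its reads carry that uncertainty.

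Of 20 genes of the PI3K, AKT and MTOR pathway, 1 rose, 5 fell and 14 were not called, with a median log2 difference of -0.19. That is 30.0% called, against 18.9% of all genes. Of the 18 that averaged at least 10 RPM, 6 were called, against 28.4% of all such genes. PIK3CB, another catalytic subunit, had 40.5 ± 8.64 and 76.6 ± 14.7 RPM without overlap, and did not pass (SD, n = 3 per line, limma adjusted p = 0.056). The log2 ratio of PIK3CA to PIK3CB was -2.41 ± 0.44 and -2.54 ± 0.39 and overlapped (SD, n = 3 per line, exact permutation p = 0.5, adjusted p = 0.58), and within replicate numbers it was lower in HuCCT1/CD90+ cells in 3 of 3 pairs of libraries (paired exact permutation p = 0.25). PIK3CD, the catalytic subunit best known from leukocytes, fell from 69.2 ± 20.0 to 19.5 ± 5.52 RPM (SD, n = 3 per line, limma adjusted p = 0.022). The regulatory subunit PIK3R1, which binds and restrains the catalytic subunits, fell from 39.4 ± 7.09 to 22.1 ± 0.658 RPM (SD, n = 3 per line, limma adjusted p = 0.028), and PIK3R3 fell by 1.35 on the log2 scale. MTOR, the growth kinase, and TSC1, which restrains it, fell by 0.61 and 0.38 on the log2 scale. Neither was called after the median of its 50 nearest genes, described below, was taken off (limma adjusted p = 0.76 and 0.12). PHLPP1, a phosphatase of AKT, rose by 0.40. With replicate number as a block, 2 of the 20 were called, PIK3CD among them, against 13.1% of all genes. PIK3R1, PIK3R3, MTOR, TSC1 and PHLPP1 were not called in that fit (limma adjusted p = 0.067 to 0.13).

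**Figure D3:**
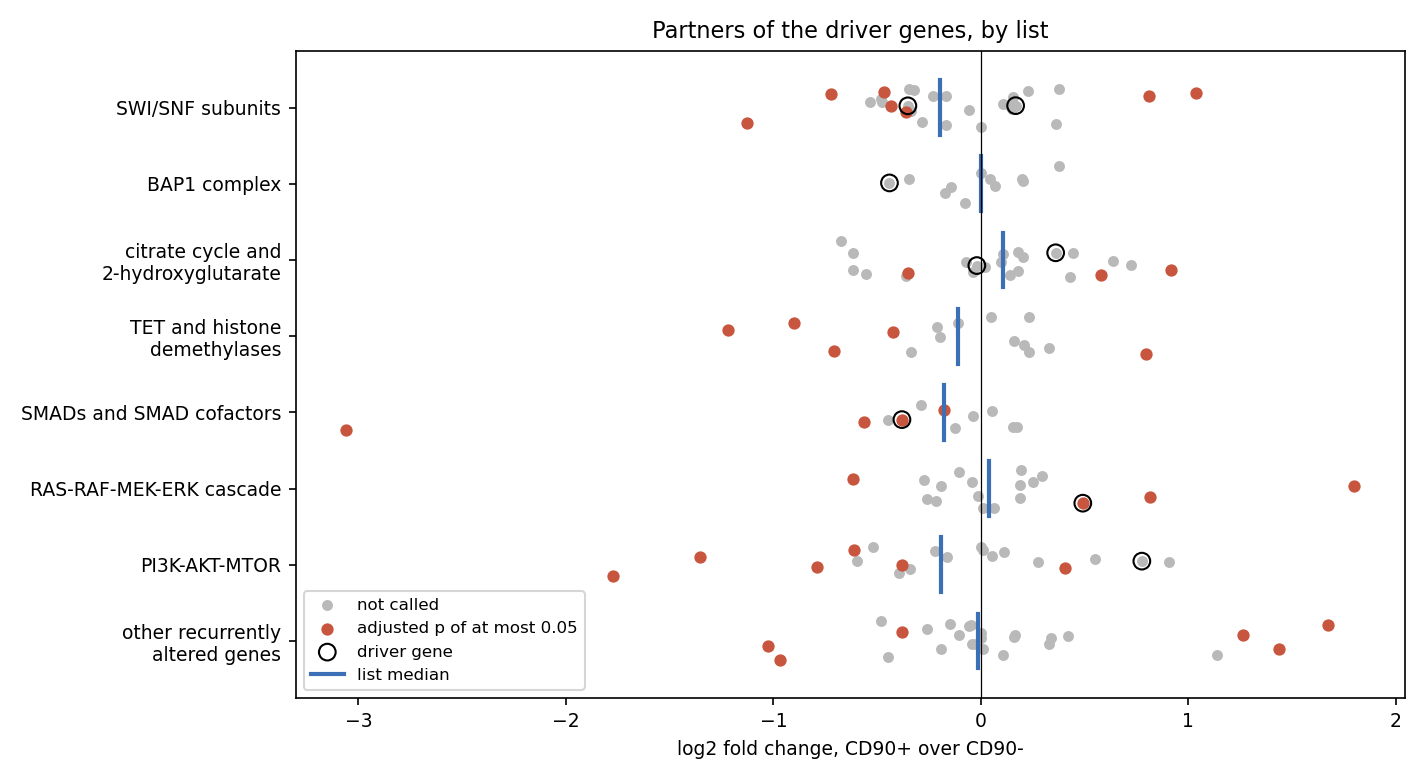
Differences in log2(RPM + 1) between HuCCT1/CD90+ and HuCCT1/CD90- cells for the genes of the 8 pathway lists, 1 point per gene, with called genes in red, driver genes circled and a bar at the median of each list. Every list holds genes on both sides of 0. Of the called genes, 4 of the SMAD list are lower and 0 higher, SMAD9 with at most 2 reads included, against 9.52% and 9.41% of all genes. The replicate block left 2 of the 4, SMAD6 and SKI, and no difference between lists was tested.

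The neighbours of the driver genes on the chromosomes were compared next, because the genes nearest to BRAF also had higher values in HuCCT1/CD90+ cells. For each driver gene the closest 50 genes that averaged 10 RPM or more were taken, leaving out the gene itself. Among the neighbours of BRAF, over 20.6 Mb of chromosome 7, 44 of 50 had a positive difference, and 23 were called higher and 0 lower. Their median log2 difference was 0.47, and BRAF at 0.49 ranked 26 of the 51. The neighbour median was then taken off every HuCCT1/CD90+ library as the same fixed value, and the HuCCT1/CD90- libraries were left as they were. The difference of BRAF was then 0.03 with a 95% interval from -0.18 to 0.25 (limma adjusted p = 0.96). This interval leaves out the uncertainty of the median. The median of the neighbours was at 0.42, 0.49 and 0.44 in HuCCT1/CD90+ libraries 1, 2 and 3 on the log2 scale, against -0.03 to 0.03 in the HuCCT1/CD90- libraries. The rise of BRAF was thus of the size of the difference of the genes around it.

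The difference of SMAD4 was opposite in sign to the median of its neighbours. Over 46.3 Mb of chromosome 18, 31 of the 50 neighbours had a positive difference, 4 were called higher and 4 lower, and the median was 0.20. SMAD4 ranked 42 of the 51 from the highest. With the neighbour median taken off, its log2 difference was -0.57 (limma adjusted p = 0.0047), a test that uses the spread between libraries and not the spread among the neighbours. It was the one driver gene called in that fit, in which 16.1% of all genes were called.

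PIK3CA lay among genes that were higher, and BAP1 and PBRM1 among genes that were lower. The neighbours of PIK3CA had a median log2 difference of 0.57, with 42 of 50 positive, 27 called higher and 2 lower, and the difference of PIK3CA itself fell from 0.78 to 0.26 when this median was taken off. BAP1 and PBRM1 shared 48 of their 50 neighbours. The median was -0.22 for both, and 12 of 50 neighbours were positive. With it taken off, BAP1 was at -0.22 and PBRM1 at -0.14 on the log2 scale (limma adjusted p = 0.43 and 0.48). No neighbour was shared between BAP1 and PIK3CA, which lie on different arms of chromosome 3. The neighbours of IDH1 and ARID1A had medians of -0.01 and -0.03, and the differences of these genes moved little, to 0.38 and 0.20. Around IDH2 the median was 0.28, and IDH2 went from -0.02 to -0.29 (limma adjusted p = 0.37).

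**Figure D4:**
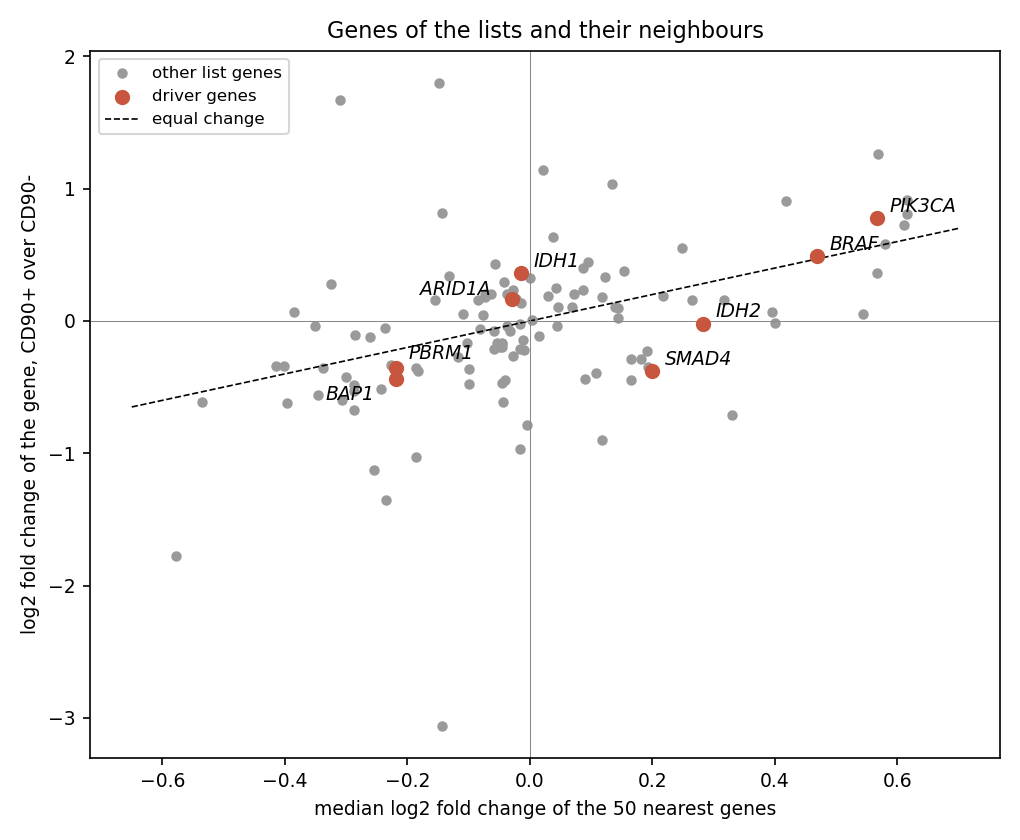
Difference in log2(RPM + 1) between HuCCT1/CD90+ and HuCCT1/CD90- cells (vertical axis) against the median difference of the 50 nearest genes (horizontal axis), for the driver genes (red) and the other list genes of at least 10 RPM (grey). The dashed line marks equal change, and BRAF lies on it at 0.47 and 0.49, while SMAD4 lies below it.

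Other genes of the pathway lists were compared with their neighbours in the same way. On chromosome 7, all 6 list genes of at least 10 RPM other than BRAF had positive differences, with a median of 0.77. Of these 4 were called, and 0 were called after the neighbour median was taken off. These 4 were BCL7B, OGDH, MDH2 and EGFR, and the median of the 6 went to 0.18. On chromosome 1, 7 of 13 list genes were called, 1 higher and 6 lower, and 2 with the neighbour median taken off. MTOR, SKI, SDHC, KDM5B and PIK3CD were then not called. Their log2 differences were -0.08, -0.22, -0.02, -0.13 and -1.22 with the median taken off. On chromosome 3, which holds BAP1, PBRM1 and PIK3CA, 4 of 8 list genes were positive, 2 were called, both lower, and 1 was called with the median taken off. SMARCC1 was then not called (limma adjusted p = 0.21). On chromosome 18, which holds SMAD4, 2 of 4 were positive, 1 was called higher, and 1 other gene was called with the median taken off. Across 111 list genes of at least 10 RPM, without the driver genes, Pearson's r between a gene's difference and its neighbour median was 0.41, and across 8648 genes it was 0.24. These are correlations across genes of the same 6 libraries, which are not independent replicates, and they carry no p. The cause of the regional differences was not tested.

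Over all lists, 136 distinct genes other than the drivers were measured. Of these 32 were called, 11 higher and 21 lower, or 23.5%, and 20 of the 32 were also called with the neighbour median taken off and 13 with replicate number as a block. Over all genes the share called was 18.9%. Among list genes of at least 10 RPM, 26 of 111 were called, or 23.4%, against 28.4% of all such genes.

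The genes whose pattern over the 6 libraries was closest to that of each driver gene were found by the root mean square distance between centred log2(RPM + 1) values, among genes of at least 10 RPM. For SMAD4 these were MTX3, USP34 and ZFC3H1, at distances of 0.019, 0.035 and 0.036. VPS51, VPS41 and CACNB3 were closest to BRAF, at 0.040, 0.043 and 0.043. The closest to IDH1 were LDHA, KDELR3 and HERC3, and to IDH2 ZHX2, ZNF74 and SHKBP1. For ARID1A they were NLK, UBXN7 and DDX10, and for PBRM1 GON4L, DNAJC11 and UBB. BAP1 was closest to LOC253039, BARD1 and HIST1H2AC, and PIK3CA to CANX, GOLGB1 and COL16A1. The distances of PIK3CA, the gene with the fewest reads, were the longest of the 8.

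THY1 reads numbered 0, 1 and 0 with the blank vector and 435, 445 and 680 with the THY1 vector, which matched the labels. Its mean in HuCCT1/CD90+ cells was 57.4 ± 14.4 RPM (SD, n = 3). The libraries held 8587634 to 10551516 reads on genes, and each HuCCT1/CD90- library was deeper than each HuCCT1/CD90+ library. Of 7 biliary epithelial markers, 5 were higher in HuCCT1/CD90+ cells, and the sum of the 7 ran from 8210 to 9314 RPM in HuCCT1/CD90- libraries and from 10974 to 11722 RPM in the others. Of 4 hepatocyte markers 3 had at most 3 reads in every library, and the sum was at most 4.28 RPM. Fibroblast markers summed to 40.9 to 63.6 and 20.3 to 24.7 RPM, with 4 of 5 lower, and endothelial markers to 14.5 to 23.2 and 0.643 to 1.51 RPM, with 1 of 3 called lower. Leukocyte markers summed to 46.5 to 55.9 and 83.9 to 100.5 RPM through CD68, while PTPRC had at most 1 read. With replicate number as a block, 3 of the 7 biliary markers were higher and 2 of the 5 fibroblast markers lower. The part of these differences in the results on the driver genes was not tested.

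**Figure D5:**
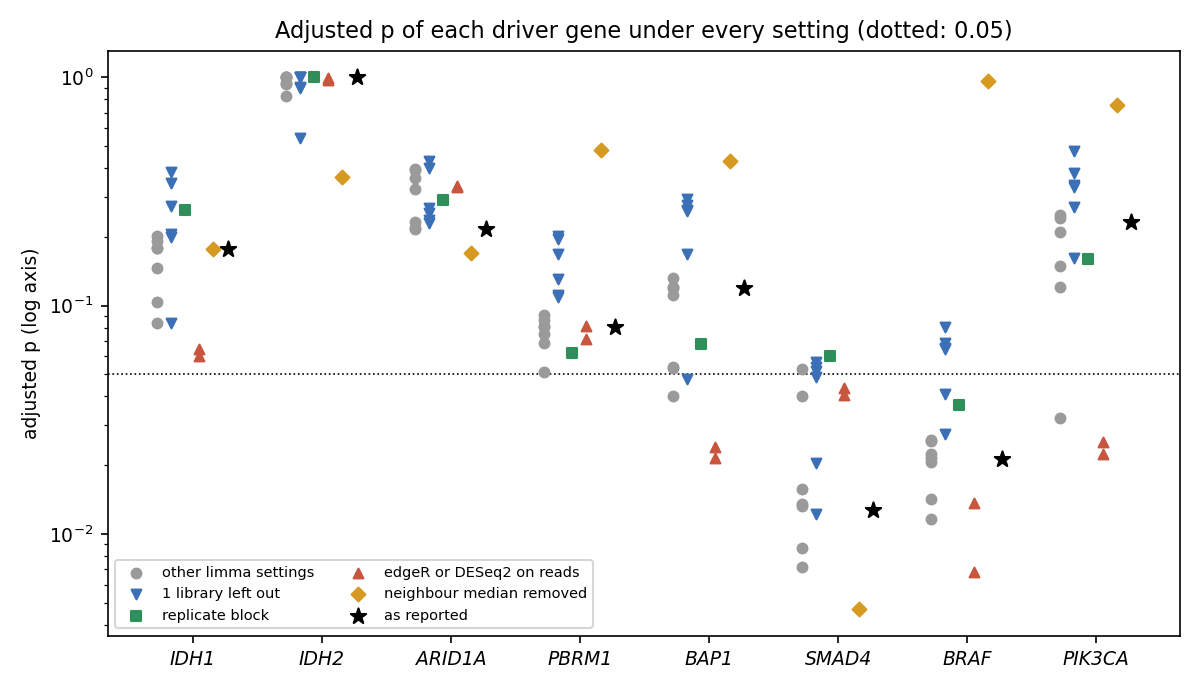
Adjusted p on a log axis for each driver gene, in the analysis as reported (stars) and under each alternative setting, with a dotted line at 0.05. SMAD4 and BRAF were each called in 12 of 17 alternative settings, and IDH1, IDH2, ARID1A and PBRM1 in none.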

How the data were processed

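RNA of 6 HuCCT1 libraries, 3 per line, was measured with an Ion AmpliSeq transcriptome panel, which amplifies a short piece of each gene. The authors used the ampliSeqRNA plugin of Torrent Suite to count amplicon reads and deposited 1 table of RPM values for 20811 genes, scaled to the reads on genes of each library. The submitters' processing notes name the hg19 build and Transcriptome Analysis Console, and the amplicons' sequences and positions were not used here. Because amplicons differ in efficiency, RPM values of different genes are not amounts of molecules, and each gene was compared with itself. An amplicon also reads only the isoforms that hold it.

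Low values fell on whole multiples of 1 read, so reads were recovered, and 100% of values came out whole within 0.1 reads. The libraries held 8587634 to 10551516 reads, and 3 reads, the limit that a count of 0 allows, were 0.284 to 0.349 RPM. Such limits cover counting error only.

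Groups followed the labels. The main test was limma 3.58.1 in R 4.3.3 on log2(RPM + 1), an offset of 1 RPM, over all 20811 genes without a filter, with Benjamini-Hochberg adjustment and calls at an adjusted p of at most 0.05. Fold changes on this scale understate the changes of low genes. Added tests were edgeR 4.0.16 (quasi-likelihood, TMM), which called 5357 of 12070 genes, and DESeq2 1.42.0, which called 5326 of 14399, both on recovered reads. The ratios of 7 pairs of genes were compared by two-sided exact permutation tests, and p-values were adjusted over all 7. Of these pairs 1, and some list genes, are not reported here. Offsets of 0.1 and 5 RPM, filters at 1 and 10 RPM, quantile scaling, median centring, a trended and robust variance, a replicate block, leaving out each library, the study's thresholds and removal of the neighbour median were tried as alternatives.

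The labels number the replicates in both lines but do not say what a number marks. Deviations of libraries with the same number from the means of their lines correlated at 0.21, 0.32 and 0.18, against -0.29 to 0.07 for other pairs of libraries, so the numbers were taken to pair the libraries on this check alone. With the block 13.1% of all genes were called. No 2 libraries agreed within sampling noise.

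The driver genes and the gene lists were chosen with earlier results of these data known. Of 175 list entries 1 (KMT2D) was left unmatched because its older symbol was ambiguous in the table, and KMT2C, BICRA and BICRAL were found under older symbols. Named genes were the drivers, their fixed partners, list genes that were called or at the extremes of a list, and, for each driver, the 3 genes with the closest pattern. TET3, D2HGDH, SMAD2, SMARCA4, ASXL1, ASXL2, HCFC1, OGT and ARAF were named for their roles, after their values were seen. Gene positions and neighbours came from GENCODE 29 on GRCh38 and are given on that build, and 19615 genes had one. Figures were drawn with matplotlib 3.10.9.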

Additional observations from a re-analysis of the deposited data

How the results depend on the processing

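The direction of 7 of the 8 driver genes was the same under every alternative that was run, and that of IDH2 turned positive without HuCCT1/CD90- library 2 (0.062) and without HuCCT1/CD90+ library 1 (0.091) or 3 (0.014), within a range of -0.16 to 0.091 when 1 library was left out. Of the 8 genes 1 was called with the replicate block (BRAF), 4 by edgeR, 4 by DESeq2, 1 with the neighbour median removed (SMAD4), 0 with the study's thresholds and 0 to 2 when 1 library was left out, with 0 without HuCCT1/CD90+ library 3. Both genes called by the filter at 1 RPM rose (BRAF and PIK3CA), in a fit that called 41.7% of 12062 genes, and the adjusted p of SMAD4 was then 0.053. In that fit the SE was 0.15 for both ARID1A and PBRM1, against 0.07 and 0.10 without a filter. For PIK3CA the SE went from 0.35 to 0.26. The block changed no other call among the drivers, and it called 3 of the TET and demethylase list, 2 of the SMADs, 2 of the RAS cascade, 2 of the PI3K pathway and 3 of the other recurrently altered genes. The filter at 1 RPM called 9 citrate cycle and 10 PI3K genes, and that at 10 RPM called 9, 10, 1 of the BAP1 complex and 3 of the TET list, whose TET1 and KDM6A it leaves untested. Median centring called 5 citrate cycle genes. For the SWI/SNF, BAP1 complex, citrate cycle and PI3K lists, edgeR called 11, 1, 10 and 12 and DESeq2 11, 1, 10 and 11. With the neighbour median removed 1 citrate cycle and 3 PI3K genes were called, and with the study's thresholds 4 SWI/SNF genes and 1 SMAD. Leaving out 1 library gave 2197 to 2932 calls over all genes, and per list 2 to 4 (SWI/SNF), 0 to 1 (BAP1 complex), 1 to 3 (citrate cycle), 2 to 3 (TET), 1 to 4 (SMADs), 2 to 3 (RAS cascade), 0 to 3 (PI3K) and 2 to 7 (other altered genes), from fewer samples. The difference in the BAP1 to PBRM1 ratio turned positive without HuCCT1/CD90- library 2 (0.027) and HuCCT1/CD90+ library 1 (0.024) or 3 (0.011), in a range of -0.30 to 0.027, and that of PIK3CA to PIK3CB without HuCCT1/CD90- library 2 (0.032) and HuCCT1/CD90+ library 1 (0.096), in a range of -0.38 to 0.096. The other 5 pairs kept their direction when 1 library was left out. The paired permutation within replicate numbers, chosen after seeing the data, cannot go below p = 0.25. The cause of the remaining differences was not tested. PIK3CA had the fewest reads of the driver genes, 41 to 135 in a library.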

Other observations

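Other genes that are recurrently altered in bile duct cancer were measured beside the 8 drivers. Of 26 such genes 3 rose, 3 fell and 20 were not called by limma, with a median log2 difference of -0.01. That is 23.1% called, against 18.9% of all genes. Of the 20 that averaged at least 10 RPM, 5 were called, against 28.4% of all such genes. CTNNB1, which codes for beta-catenin, fell from 929 ± 84.9 to 455 ± 33.7 RPM (SD, n = 3 per line, limma adjusted p = 0.0048). TSC1 also fell. EGFR, a growth factor receptor, rose from 228 ± 53.0 to 541 ± 63.6 RPM (SD, n = 3 per line, limma adjusted p = 0.024), and ELF3, an epithelial transcription factor, rose from 29.4 ± 6.0 to 96.8 ± 23.2 RPM (SD, n = 3 per line, limma adjusted p = 0.018). FGFR2 had 0 reads in every HuCCT1/CD90- library and 1.75 ± 0.61 RPM in HuCCT1/CD90+ cells (SD, n = 3), at least 5.45-fold higher than 3 reads in a library. CTNNB1, ELF3 and FGFR2 were also called with the neighbour median removed, and EGFR and TSC1 were not (limma adjusted p = 0.12 for each). The fit blocked on replicate number called 3 of the 26, CTNNB1, ELF3 and FGFR2, against 13.1% of all genes. EGFR was not called in it (limma adjusted p = 0.068).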
